A study of Mus musculus with 14 samples.

Results

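The matrix metalloproteinases (Mmp), the ADAMTS proteases, the ADAMTS-like proteins (Adamtsl) and the tissue inhibitors of metalloproteinases (Timp) were followed across 2 stromal cell sorts of mouse bone marrow, with and without granulocyte colony-stimulating factor (G-CSF), a growth factor for neutrophils. Members were all genes of these 4 families with a probe set of their own on the array, found by symbol. There were 42 among 18193 genes, namely 18 Mmp, 15 Adamts, 5 Adamtsl and 4 Timp genes, measured by 78 probe sets. Where a gene had several probe sets, which was so for 21 members, the one with the highest mean on the log2 scale over the 14 arrays stood for it. After the dimmest probe sets, a fraction of 0.333, were dropped, 32 members passed: 11 Mmp, 12 Adamts, 5 Adamtsl and all 4 Timp. The 10 that did not pass were Mmp1a, Mmp1b, Mmp7, Mmp10, Mmp12, Mmp19, Mmp20, Adamts8, Adamts19 and Adamts20.

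All mice were pOBcol2.3-GFP animals on the C57BL/6J background with an otherwise wild-type genotype, 6 to 8 weeks old, whose GFP reporter is driven in osteoblasts by part of a collagen I promoter. The sort labelled osteoblasts was GFP+ and negative for CD45, ter119 and CD31, with 3 G-CSF arrays and 3 untreated arrays. The sort labelled endothelial cells was CD31+ and negative for CD45, ter119 and GFP, with 4 G-CSF arrays and 4 untreated arrays. G-CSF was given under the skin at 250 ug per kg for 5 days per the titles. The protocol text of the untreated arrays speaks of vehicle and of 7 days. The labels do not say whether replicates are separate or pooled animals, so p-values measure only the spread between these samples, and the number of arrays limits the precision.

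As background, Mmp proteins are zinc proteases that cut collagens, gelatin and other matrix proteins and are made as inactive proenzymes. ADAMTS proteases are secreted relatives that process procollagens, cut aggrecan and versican or bind fibrillin fibres, and ADAMTS-like proteins share their accessory domains but lack the protease. TIMP proteins bind the active site of these enzymes and block it. In bone, osteoblasts and osteocytes are known sources of collagenase and gelatinase, and neutrophils carry Mmp8 and Mmp9 ready-made in their granules.

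Levels are given as log2 of the deposited intensity plus 16, and a change or difference is one on that scale with its standard error (SE). A call means an adjusted p under 0.05 in limma over all 13453 genes tested. Levels of different genes are not compared, since probe sets differ in brightness. All 8 endothelial markers were lower in GFP+ cells in both states, and their mean level was 8.34 to 9.24 on GFP+ arrays and 12.39 to 12.95 on CD31+ arrays. The osteoblast list, of which 6 of 11 genes were measured, had a mean of 13.39 to 13.85 on GFP+ G-CSF arrays and 12.25 to 14.27 on GFP+ untreated arrays. On CD31+ arrays it lay between 8.48 and 11.78 after G-CSF and between 10.96 and 12.84 in untreated cells, so osteoblast genes were well measured in the CD31+ sort too. Of the 6, limma called 1 higher in untreated GFP+ cells and 6 after G-CSF. Other marker lists also held calls between the sorts. Of all genes tested, 13.6% were called higher and 12.8% lower in untreated GFP+ cells, and 17.5% and 14.4% after G-CSF. Skeletal muscle genes were lower in GFP+ cells for 6 of 7 untreated and 2 after G-CSF, and 2 of 5 pericyte and smooth muscle genes were lower untreated, with 1 higher and 1 lower after G-CSF. Fibroblast and tendon genes were higher for 2 of 7 untreated and 4 after G-CSF. Of 4 reticular stroma and adipocyte genes, 2 were higher untreated, and 2 were higher and 1 lower after G-CSF. Osteoclast genes were higher for 0 of 4 untreated and 2 after G-CSF, and chondrocyte genes for 1 of 7 untreated and 2 after G-CSF. In each state 1 of 7 monocyte and macrophage genes and 1 of 5 megakaryocyte genes were lower. Neutrophil markers, which a CD45 gate should remove, had means of 10.68 to 14.25 over all arrays. GFP+ untreated array 2 held the extremes within its group, with an osteoblast mean of 12.25 and a neutrophil mean of 14.25, against 14.06 and 10.73 on array 1 and 14.27 and 10.68 on array 3. CD31+ untreated array 1 had a skeletal muscle mean of 13.40. The actin 3' to 5' ratio, a sign of RNA quality, was highest on array 3 of both GFP+ groups, at 10.49 after G-CSF and 11.03 untreated, and was 2.71 and 6.28 on the other GFP+ G-CSF arrays and 3.83 and 4.34 on the other GFP+ untreated arrays. It was 2.62 to 3.76 on CD31+ G-CSF arrays and 3.01 to 6.57 on CD31+ untreated arrays. The deposited table prints GFP+ arrays 2 and 3 of both states with more decimals than the other arrays, and this was fitted as a batch term for each comparison. In bulk RNA, fewer cells of a type cannot be told apart from less RNA per cell.

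The 2 sorts differed in many members, and G-CSF moved none past the threshold in either sort in the fit without a replicate block. With the replicate number as a block, G-CSF called 2 members in GFP+ and 4 in CD31+ cells, named with that comparison. In untreated cells 15 of the 32 members tested were called between GFP+ and CD31+ cells, 13 higher and 2 lower in GFP+ cells. Of all genes tested, 26.4% were called there, 13.6% higher and 12.8% lower. After G-CSF 19 of 32 were called, 16 higher and 3 lower, beside 31.9% of all genes, 17.5% higher and 14.4% lower. Every GFP+ array lay above every CD31+ array of its state for 15 members untreated and 16 after G-CSF. That is 46.9% and 50% of the tested members, beside 16.7% and 21.4% of all genes. Every GFP+ array lay below for 3 members in each state, 9.38%, beside 15.9% and 18% of all genes. The median difference of the tested members was 0.74 in untreated and 0.82 in G-CSF cells, beside 0.00 and 0.02 over all genes. Since a gene at low level in one sort passes the filter only through the other, these counts describe the measured members. Without a filter the counts were 15 and 19 among all 42, beside 19.1% and 23.5% of all genes. Called in both states were 11 members higher in GFP+ cells and 2 lower, which is 11 of 13 and 11 of 16 of the higher calls. The comparisons of the 2 states use separate arrays but are not independent. They share a common estimate of the spread, and same-numbered arrays of the 2 states deviated together. With decimals as a batch term, in which only replicate 1 of the GFP+ groups meets the CD31+ arrays, 13 members were called untreated (10 higher, 3 lower) and 18 after G-CSF (14 higher, 4 lower). Without GFP+ untreated array 2 and CD31+ untreated array 1 the counts were 16 and 20, with Adamtsl2 added to the lower calls untreated (-1.83, adjusted p = 0.0104) and Adamts18 to the higher calls after G-CSF (adjusted p = 0.049). Array medians were higher by 0.23 on untreated and 0.39 on G-CSF arrays of GFP+ cells than of CD31+ cells. With every array centred on its median 13 members were higher and 4 lower untreated, with Adamts1 and Adamts7 added to the lower calls. After G-CSF 14 were higher and 4 lower, with Adamts5 added to the lower calls. Of all genes, the batch term called 25.3% untreated and 30.7% after G-CSF. Without GFP+ untreated array 2 and CD31+ untreated array 1 these shares were 30.7% and 35.4%, and with median centring 28.4% and 40.3%.

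**Figure D1:**
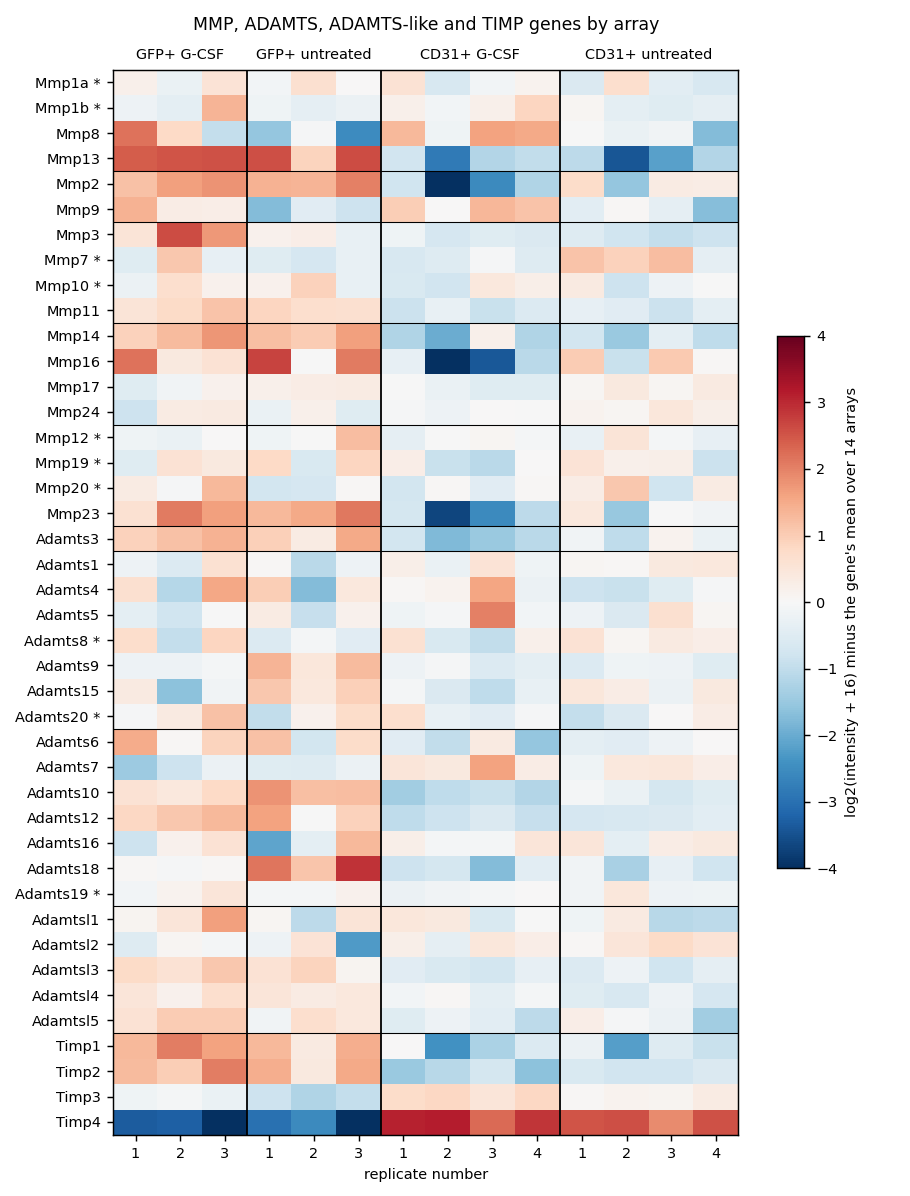
Level of each of the 42 members on each of the 14 arrays, as log2(intensity + 16) minus the mean of that gene over all arrays, with colours capped at 4 either way. Columns are arrays by replicate number, rows are grouped by role from collagenases to inhibitors, and a star marks a gene that did not pass the filter. Mmp13, Mmp2, Timp1 and Timp2 are high on GFP+ arrays and Timp4 is high on CD31+ arrays.

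Among the collagenases, Mmp13, the main collagenase of rodent bone, was higher in GFP+ cells in both states. Mmp13 measured 15.15, 15.24 and 15.29 on GFP+ G-CSF arrays, against 15.30, 13.62 and 15.35 on GFP+ untreated arrays. In the other sort Mmp13 was 11.95, 9.90, 11.57 and 11.76 on CD31+ G-CSF arrays, against 11.70, 9.32, 10.56 and 11.55 on CD31+ untreated arrays. Every GFP+ array lay above every CD31+ array, with GFP+ untreated array 2, at 13.62, the lowest of its sort. The difference between GFP+ and CD31+ cells was 3.97 ± 0.58 (SE, adjusted p = 0.000141) in untreated cells, or 15.7-fold, and 3.93 ± 0.58 (SE, adjusted p = 0.000114) after G-CSF, or 15.2-fold. Without GFP+ untreated array 2 and CD31+ untreated array 1 the untreated difference was 4.85 (adjusted p = 4.26e-05). Mmp8, the collagenase of neutrophil granules, did not separate the sorts and is described with the G-CSF comparison.

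Mmp13 lies in a run of 10 neighbouring Mmp genes on chromosome 9, of which 9 are members and 3 passed the filter (Mmp13, Mmp3 and Mmp8). Promoters were taken from RefSeq on GRCm38.p6, as 250 bases before to 50 bases after the start, and 27 of the 42 members matched, with 30 promoters. They were searched on both strands for the AP-1 motif TGACTCA and the RUNX motif AACCACA, which do not overlap each other. The AP-1 letters stood in 7 of the 30 member promoters, 23.3%, and in 5.2% of 32841 promoters of that length, while the RUNX letters stood in 2 member promoters (Mmp13 and Mmp7) and 5.27% of all. All 7 promoters with the AP-1 letters (Mmp1a, Mmp1b, Mmp3, Mmp7, Mmp10, Mmp12 and Mmp13) belong to the chromosome 9 run, and 5 of those 7 genes did not pass the filter. The 250 bases before the start of Mmp13 and Mmp3 are shown because these are the called genes whose promoter holds the AP-1 letters. Capitals mark AP-1 letters (from base -35 in Mmp13 and, as the reverse complement, from base -46 in Mmp3) and RUNX letters (from base -119 in Mmp13), counted back from the start. A match of letters is a description of the sequence and shows no binding.
Mmp13 promoter, GRCm38.p6, chr9:7272264-7272513, plus strand: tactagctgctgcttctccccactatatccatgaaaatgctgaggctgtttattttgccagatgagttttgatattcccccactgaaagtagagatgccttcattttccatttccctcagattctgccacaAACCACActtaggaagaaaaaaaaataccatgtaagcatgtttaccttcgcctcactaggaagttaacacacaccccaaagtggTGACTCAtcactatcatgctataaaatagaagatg
Mmp3 promoter, GRCm38.p6, chr9:7445572-7445821, plus strand: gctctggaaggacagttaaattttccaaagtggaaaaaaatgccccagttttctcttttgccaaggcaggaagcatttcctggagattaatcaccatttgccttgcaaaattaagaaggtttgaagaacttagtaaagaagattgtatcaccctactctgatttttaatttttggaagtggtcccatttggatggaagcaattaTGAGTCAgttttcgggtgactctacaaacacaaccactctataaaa

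The stromelysins Mmp3 and Mmp11 were both measured. Mmp11, stromelysin 3, was 8.57, 8.82 and 9.19 on GFP+ G-CSF arrays, against 8.93, 8.74 and 8.70 on GFP+ untreated arrays. Its levels were 7.19, 7.78, 7.18 and 7.52 on CD31+ G-CSF arrays, against 7.75, 7.60, 7.20 and 7.68 on CD31+ untreated arrays. The sorts did not overlap, and Mmp11 was higher in GFP+ cells by 1.23 ± 0.23 (SE, adjusted p = 0.000955) untreated and by 1.44 ± 0.23 (SE, adjusted p = 0.000202) after G-CSF. Mmp3, stromelysin 1, which cuts many matrix proteins and activates other proenzymes, was 6.98, 9.10 and 8.21 on GFP+ G-CSF arrays, against 6.64, 6.73 and 6.19 on GFP+ untreated arrays. It was 6.30, 5.80, 6.00 and 5.91 on CD31+ G-CSF arrays, against 5.97, 5.68, 5.52 and 5.66 on CD31+ untreated arrays. GFP+ G-CSF arrays 2 and 3 were the highest, and every GFP+ array was above every CD31+ array within each state. Mmp3 passed the test after G-CSF, with a difference of 2.09 ± 0.39 (SE, adjusted p = 0.000715), and in untreated cells its difference was 0.81 ± 0.39 (SE, adjusted p = 0.141).

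The gelatinase Mmp2, which degrades denatured collagen and is activated at the cell surface by Mmp14 together with Timp2, was called after G-CSF and not in untreated cells. Mmp2 was 14.47, 14.91 and 15.09 on GFP+ G-CSF arrays, against 14.67, 14.65 and 15.31 on GFP+ untreated arrays. It was 12.47, 8.64, 10.73 and 12.07 on CD31+ G-CSF arrays, against 14.01, 11.74, 13.62 and 13.57 on CD31+ untreated arrays, and CD31+ G-CSF array 2 was the lowest. After G-CSF the sorts differed by 3.84 ± 0.71 (SE, adjusted p = 0.000758), or 14.3-fold. In untreated cells Mmp2 differed by 1.64 ± 0.71 (SE, adjusted p = 0.109), which was called with the replicate number as a block (adjusted p = 0.0364), and the arrays did not overlap. That block joins same-numbered arrays of the 2 sorts, and whether these belong together was not tested. The other probe set of Mmp2 differed by 3.83 after G-CSF and 1.73 untreated.

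Of 4 membrane-type Mmp genes, 1 was called in untreated cells and 2 after G-CSF, beside 26.4% and 31.9% of all genes. Mmp14, the membrane-type collagenase and activator of Mmp2, was 13.76, 14.11 and 14.59 on GFP+ G-CSF arrays, against 14.05, 13.86 and 14.48 on GFP+ untreated arrays. On the other sort Mmp14 was 11.62, 10.87, 13.04 and 11.65 on CD31+ G-CSF arrays, against 12.10, 11.36, 12.45 and 11.84 on CD31+ untreated arrays. All GFP+ arrays were above all CD31+ arrays, of which CD31+ G-CSF array 3 was the highest at 13.04. Mmp14 was higher in GFP+ cells by 2.19 ± 0.40 (SE, adjusted p = 0.000844) untreated and by 2.36 ± 0.40 (SE, adjusted p = 0.000357) after G-CSF. Mmp16, another membrane-anchored member, was 10.64, 8.86 and 9.05 on GFP+ G-CSF arrays, against 11.16, 8.47 and 10.54 on GFP+ untreated arrays. It was 8.14, 4.16, 5.08 and 7.40 on CD31+ G-CSF arrays, against 9.47, 7.58, 9.52 and 8.50 on CD31+ untreated arrays, with CD31+ G-CSF arrays 2 and 3 far below the others, under the filter limit of 5.78 and at intensities of 1.9 and 17.9. The difference was 3.32 ± 0.88 (SE, adjusted p = 0.00936) after G-CSF, with adjusted p = 0.0518 without GFP+ G-CSF array 1, and 1.29 ± 0.88 (SE, adjusted p = 0.315) in untreated cells. Mmp17 and Mmp24 stayed between 7.03 and 7.91 and between 5.69 and 6.97 over all arrays and had no call between the sorts.

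Mmp23, a membrane-bound member released by cleavage, was 11.38, 12.85 and 12.41 on GFP+ G-CSF arrays, against 12.06, 12.28 and 12.87 on GFP+ untreated arrays. Its CD31+ levels were 10.05, 7.08, 8.22 and 9.71 on CD31+ G-CSF arrays, against 11.18, 9.25, 10.75 and 10.61 on CD31+ untreated arrays. The difference after G-CSF was 3.45 ± 0.62 (SE, adjusted p = 0.000568) with no overlap. In untreated cells it was 1.96 ± 0.62 (SE, adjusted p = 0.0291), a call that was lost when GFP+ array 1 or 3 or CD31+ array 2 or 4 was left out (adjusted p up to 0.109, without GFP+ array 3, the array with the highest actin ratio), and under the batch term (1.37, adjusted p = 0.213).

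Timp genes split between the sorts, with Timp1 and Timp2 higher and Timp3 and Timp4 lower in GFP+ cells in both states. Timp4, the inhibitor with the most restricted tissue range, was 8.45, 8.53 and 7.39 on GFP+ G-CSF arrays, against 8.81, 9.24 and 7.38 on GFP+ untreated arrays. It was 14.85, 14.93, 14.06 and 14.64 on CD31+ G-CSF arrays, against 14.30, 14.36, 13.68 and 14.34 on CD31+ untreated arrays, and the lowest CD31+ array was 13.68 beside a highest GFP+ array of 9.24. The difference of Timp4 was -5.69 ± 0.39 (SE, adjusted p = 1.22e-07) untreated, 51.7-fold lower in GFP+ cells, and -6.50 ± 0.39 (SE, adjusted p = 4.34e-08) after G-CSF, 90.4-fold lower. The second probe set of Timp4 differed by -5.29 and -6.57. Timp3, which stays bound to the matrix and also blocks aggrecan-cutting ADAMTS proteases and the sheddase Adam17, was 13.24, 13.34 and 13.15 on GFP+ G-CSF arrays, against 12.60, 12.24 and 12.48 on GFP+ untreated arrays. In the other sort Timp3 was 14.15, 14.24, 13.91 and 14.25 on CD31+ G-CSF arrays, against 13.49, 13.57, 13.54 and 13.76 on CD31+ untreated arrays. The sorts did not overlap within a state, and the differences were -1.15 ± 0.15 (SE, adjusted p = 6.06e-05) untreated and -0.89 ± 0.15 (SE, adjusted p = 0.000412) after G-CSF. All 3 other probe sets of Timp3 differed in the same direction, by -0.55 to -0.89 untreated and by -0.70 to -0.98 after G-CSF.

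Timp2, which blocks Mmp2 and also brings its proenzyme to Mmp14, was 14.01, 13.74 and 14.80 on GFP+ G-CSF arrays, against 14.22, 13.14 and 14.26 on GFP+ untreated arrays. Its CD31+ levels were 11.28, 11.66, 12.04 and 11.11 on CD31+ G-CSF arrays, against 12.14, 11.99, 12.00 and 12.18 on CD31+ untreated arrays. Every GFP+ array was above every CD31+ array, by 1.80 ± 0.30 (SE, adjusted p = 0.000482) untreated and by 2.66 ± 0.30 (SE, adjusted p = 1.02e-05) after G-CSF. Timp1, a soluble inhibitor of most secreted Mmp proteins, was 12.08, 12.81 and 12.37 on GFP+ G-CSF arrays, against 12.08, 11.13 and 12.23 on GFP+ untreated arrays. It was 10.77, 8.34, 9.51 and 10.23 on CD31+ G-CSF arrays, against 10.54, 8.55, 10.26 and 9.88 on CD31+ untreated arrays, with array 2 the lowest of both CD31+ groups. Timp1 was higher in GFP+ cells by 2.70 ± 0.53 (SE, adjusted p = 0.00112) after G-CSF and by 2.01 ± 0.53 (SE, adjusted p = 0.011) untreated. The untreated call of Timp1 was lost without GFP+ untreated array 3, which had the highest actin ratio (adjusted p = 0.0525), and under the batch term (1.97, adjusted p = 0.0514).

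**Figure D2:**
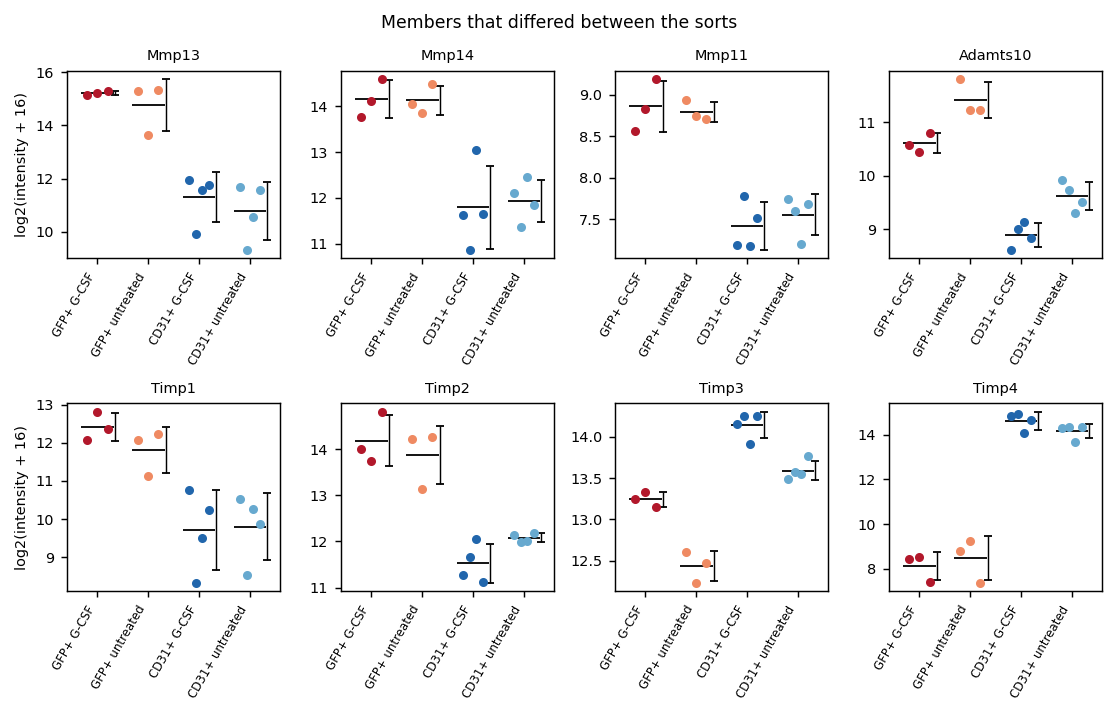
Levels of 8 members called between the sorts in both states, as log2(intensity + 16), 1 point per array, with the group mean (line) and SD (bar) of 3 GFP+ or 4 CD31+ arrays; each panel has its own scale. Timp4 is at 7.38 to 9.24 on GFP+ arrays and 13.68 to 14.93 on CD31+ arrays, and Mmp13 is at 13.62 to 15.35 and 9.32 to 11.95.

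Adamts3, which removes the N-terminal propeptide of procollagens and is needed to process Vegfc, was 8.47, 8.72 and 8.94 on GFP+ G-CSF arrays, against 8.50, 7.86 and 9.05 on GFP+ untreated arrays. It was 6.80, 5.77, 6.07 and 6.47 on CD31+ G-CSF arrays, against 7.39, 6.51, 7.69 and 7.28 on CD31+ untreated arrays. The difference between GFP+ and CD31+ cells was 2.43 ± 0.34 (SE, adjusted p = 7.11e-05) after G-CSF and 1.25 ± 0.34 (SE, adjusted p = 0.0136) untreated, with no overlap in either state. The untreated call was lost without GFP+ untreated array 3, again the array with the highest actin ratio (adjusted p = 0.0822), and under the batch term (1.15, adjusted p = 0.0716). The part of RNA quality in these calls was not tested.

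Adamts10, a fibrillin-binding member with little known protease activity, was 10.58, 10.44 and 10.80 on GFP+ G-CSF arrays, against 11.80, 11.22 and 11.23 on GFP+ untreated arrays. In CD31+ cells it was 8.61, 8.997, 9.13 and 8.83 on CD31+ G-CSF arrays, against 9.92, 9.73, 9.31 and 9.51 on CD31+ untreated arrays. Every GFP+ array was above every CD31+ array, and the difference was 1.80 ± 0.21 (SE, adjusted p = 1.85e-05) untreated and 1.72 ± 0.21 (SE, adjusted p = 2.01e-05) after G-CSF. The dimmer second probe set of Adamts10 did not follow, with differences of 0.06 and 0.40 that were not called. Adamts12, a protease of cartilage oligomeric matrix protein (Comp), was 8.95, 9.19 and 9.41 on GFP+ G-CSF arrays, against 9.74, 8.09 and 9.05 on GFP+ untreated arrays. It was 7.09, 7.28, 7.53 and 7.19 on CD31+ G-CSF arrays, against 7.45, 7.47, 7.53 and 7.69 on CD31+ untreated arrays, with no overlap. Its difference was 1.42 ± 0.30 (SE, adjusted p = 0.00256) untreated and 1.91 ± 0.30 (SE, adjusted p = 0.00019) after G-CSF. Adamts7, the closest relative of Adamts12 and also a Comp protease, went the other way: it was 6.89, 7.51 and 8.12 on GFP+ G-CSF arrays, against 7.87, 7.85 and 8.12 on GFP+ untreated arrays. Its CD31+ levels were 8.85, 8.76, 9.96 and 8.65 on CD31+ G-CSF arrays, against 8.18, 8.77, 8.81 and 8.61 on CD31+ untreated arrays. All GFP+ arrays were below all CD31+ arrays within each state, and the difference was -1.55 ± 0.33 (SE, adjusted p = 0.00234) after G-CSF, which was called, and -0.65 ± 0.33 (SE, adjusted p = 0.175) untreated.

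Adamts18 was 6.70, 6.61 and 6.71 on GFP+ G-CSF arrays, against 8.80, 7.76 and 9.53 on GFP+ untreated arrays. In CD31+ cells it was 5.83, 5.93, 4.90 and 6.23 on CD31+ G-CSF arrays, against 6.52, 5.36, 6.33 and 5.86 on CD31+ untreated arrays. It was higher in untreated GFP+ cells by 2.68 ± 0.42 (SE, adjusted p = 0.000236), whereas the difference after G-CSF was 0.95 ± 0.42 (SE, adjusted p = 0.0979). Adamts18 has 3 probe sets, and with the mean of the kept probe sets of a gene it was called higher after G-CSF too (adjusted p = 0.0404). Adamts6, the closest relative of Adamts10, was 7.58, 6.18 and 7.01 on GFP+ G-CSF arrays, against 7.28, 5.38 and 6.85 on GFP+ untreated arrays. It was 5.67, 5.15, 6.48 and 4.57 on CD31+ G-CSF arrays, against 5.73, 5.67, 5.92 and 6.14 on CD31+ untreated arrays, and the groups overlapped in both states. Its difference after G-CSF was 1.46 ± 0.50 (SE, adjusted p = 0.0369), a call kept in only 2 of the 7 fits that each left out 1 of the arrays compared, with adjusted p up to 0.152. Adamts6 has 2 probe sets, and by the mean of linear intensities the other would stand for it.

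Of 5 proteoglycan-cutting Adamts genes tested, limma called 1 untreated and 0 after G-CSF, where 0 had an unadjusted p under 0.05. Of all genes, 26.4% were called untreated and 31.9% after G-CSF, where 41.2% had an unadjusted p under 0.05. Adamts9, a versican and aggrecan protease, was 11.32, 11.31 and 11.45 on GFP+ G-CSF arrays, against 12.88, 11.97 and 12.79 on GFP+ untreated arrays. It was 11.31, 11.46, 10.98 and 11.13 on CD31+ G-CSF arrays, against 10.99, 11.35, 11.33 and 11.05 on CD31+ untreated arrays, and the 3 untreated GFP+ arrays stood above all the others. The untreated difference was 1.37 ± 0.22 (SE, adjusted p = 0.000259), and that after G-CSF was 0.14 ± 0.22 (SE, adjusted p = 0.68). Other probe sets of Adamts9 disagreed: one differed by 1.64 untreated and 1.89 after G-CSF, called in both, and another by 0.38 and -0.02, called in neither. Adamts1, an aggrecan and versican protease, was 11.55, 11.22 and 12.37 on GFP+ G-CSF arrays, against 11.82, 10.69 and 11.55 on GFP+ untreated arrays. It was 11.98, 11.49, 12.31 and 11.59 on CD31+ G-CSF arrays, against 11.83, 11.81, 12.16 and 12.19 on CD31+ untreated arrays, with overlap between the sorts in both states. Adamts5, the main aggrecanase of mouse cartilage, was 11.28, 10.86 and 11.63 on GFP+ G-CSF arrays, against 11.98, 10.72 and 11.83 on GFP+ untreated arrays. Its CD31+ levels were 11.48, 11.60, 13.67 and 11.55 on CD31+ G-CSF arrays, against 11.44, 11.07, 12.28 and 11.74 on CD31+ untreated arrays, and array 3 of the G-CSF group stood above every other array. The differences of Adamts5 were -0.82 ± 0.48 (SE, adjusted p = 0.219) after G-CSF and -0.13 ± 0.48 (SE, adjusted p = 0.884) untreated. Adamts4 spanned 8.18 to 11.49, Adamts15 5.34 to 8.06 and Adamts16 4.48 to 7.88 over all arrays, with no call between the sorts; under the batch term the difference of Adamts16 was -1.85 untreated (adjusted p = 0.017) and -1.43 after G-CSF (adjusted p = 0.0478).

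Of 5 ADAMTS-like genes, 2 were called untreated and 3 after G-CSF, all higher in GFP+ cells. Of all genes, 13.6% and 17.5% were called higher there. Adamtsl3 was 8.70, 8.51 and 9.02 on GFP+ G-CSF arrays, against 8.50, 8.82 and 8.04 on GFP+ untreated arrays. It was 7.49, 7.33, 7.22 and 7.62 on CD31+ G-CSF arrays, against 7.40, 7.75, 7.15 and 7.58 on CD31+ untreated arrays, with no overlap. The difference was 0.99 ± 0.24 (SE, adjusted p = 0.00624) untreated and 1.33 ± 0.24 (SE, adjusted p = 0.000549) after G-CSF. Adamtsl4, a fibrillin-binding protein, was 9.38, 9.07 and 9.57 on GFP+ G-CSF arrays, against 9.39, 9.21 and 9.31 on GFP+ untreated arrays. It was 8.78, 8.93, 8.49 and 8.81 on CD31+ G-CSF arrays, against 8.41, 8.24, 8.71 and 8.22 on CD31+ untreated arrays, again with no overlap. Its difference was 0.91 ± 0.19 (SE, adjusted p = 0.00291) untreated and 0.59 ± 0.19 (SE, adjusted p = 0.0301) after G-CSF, the second kept in only 2 of the 7 fits that left out 1 array and not called in 5 of the 13 other alternatives. Beside an array median gap of 0.39, median centring gave 0.21 (adjusted p = 0.427) and quantile normalization 0.45 (adjusted p = 0.0934). The adjusted p was 0.0555 with the replicate block across the sorts, 0.053 with the batch term and 0.057 in a fit of only the arrays compared. Adamtsl5 was 6.96, 7.39 and 7.37 on GFP+ G-CSF arrays, against 6.24, 7.04 and 6.79 on GFP+ untreated arrays. It was 5.87, 6.17, 5.94 and 5.31 on CD31+ G-CSF arrays, against 6.63, 6.31, 6.14 and 4.99 on CD31+ untreated arrays. Its difference was 1.41 ± 0.37 (SE, adjusted p = 0.00907) after G-CSF, which was not called under the batch term (adjusted p = 0.0969), and 0.67 ± 0.37 (SE, adjusted p = 0.209) untreated. The other probe set of Adamtsl5 differed by -0.16 and -0.19, and the mean of both probe sets was not called (adjusted p = 0.178). Adamtsl1 and Adamtsl2 had no call, with differences after G-CSF of 0.69 ± 0.47 (SE, adjusted p = 0.291) and -0.33 ± 0.49 (SE, adjusted p = 0.664).

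**Figure D3:**
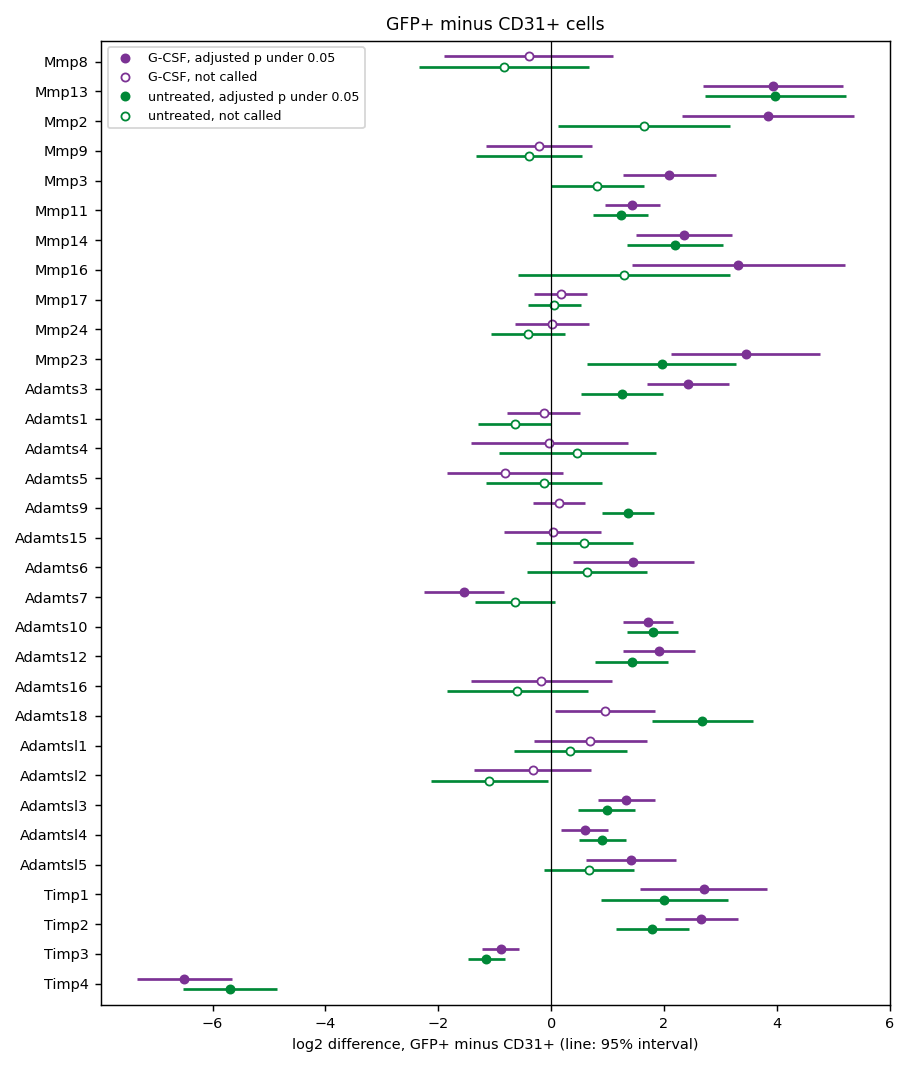
Difference between GFP+ and CD31+ cells on the log2 scale for the 32 members that passed the filter, after G-CSF (purple) and in untreated cells (green), with 95% intervals; filled points have an adjusted p under 0.05. Timp4 lies at -6.50 and -5.69, and Mmp13 at 3.93 and 3.97. Mmp2, Mmp3 and Mmp16 are filled after G-CSF and open in untreated cells.

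Calls that stood in 1 state only are not shown to differ between states. The test of that difference, which is also the test of whether G-CSF moved a member differently in the 2 sorts, called 0 of 32 members and 0 of all genes, 0%, in limma. At an unadjusted p under 0.05 it held 5 of 32 members, beside 4.62% of all genes. They were Adamts9 (difference of the changes, GFP+ minus CD31+, of -1.23, adjusted p = 0.55), Adamts18 (-1.73, 0.875), Adamts3 (1.17, 0.977), Mmp3 (1.28, 0.985) and Mmp2 (2.20, adjusted p = 1).

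With G-CSF against untreated, limma called 0 of 32 members in GFP+ cells, where 0.23% of all genes were called, and 0 of 32 in CD31+ cells, where 1.6% were. Of all genes, 0.186% were called higher and 0.0446% lower in GFP+ cells, and 0.453% higher and 1.14% lower in CD31+ cells. At an unadjusted p under 0.05 there were 8 of 32 members in GFP+ cells, beside 8.85% of all genes, and 9 of 32 in CD31+ cells, beside 13.1%. Groups did not overlap for 3 members that were higher and 5 that were lower in GFP+ G-CSF arrays. That is 9.38% and 15.6% of the tested members, beside 3.61% and 5.69% of all genes. In CD31+ cells groups did not overlap for 1 higher and 3 lower members, 3.12% and 9.38%, beside 4.65% and 5.62% of all genes. The median change of the tested members was 0.23 in GFP+ and -0.14 in CD31+ cells, beside -0.04 and -0.05 over all genes. The replicate number as a block called 2 members in GFP+ cells (Timp3 higher and Adamts9 lower) and 4 in CD31+ cells (Timp3 higher, Mmp2, Mmp16 and Mmp23 lower), with 64 and 660 genes called in all. The batch term for decimals called 2 members in GFP+ cells (Timp3 higher and Adamts9 lower) and 0 in CD31+ cells, with 38 and 244 genes called in all.

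Timp3, whose levels are given above, was higher after G-CSF on every array of both sorts. The change was 0.80 ± 0.16 (SE, adjusted p = 0.0703) in GFP+ cells and 0.55 ± 0.14 (SE, adjusted p = 0.069) in CD31+ cells, and with the replicate block adjusted p was 0.0495 and 0.0316. All 3 other probe sets of Timp3 had changes above 0 in both sorts, of 0.46 to 0.67 in GFP+ and 0.59 to 0.75 in CD31+ cells, none called. Over the fits that left out 1 array, the change ran from 0.70 to 0.89 in GFP+ and from 0.51 to 0.62 in CD31+ cells.

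Adamts9 and Adamts18 were lower on every GFP+ G-CSF array than on any GFP+ untreated array. The change was -1.19 ± 0.23 (SE, adjusted p = 0.051) for Adamts9, whose block value was adjusted p = 0.0443, and -2.03 ± 0.45 (SE, adjusted p = 0.0904) for Adamts18. In CD31+ cells the changes were 0.04 ± 0.20 (SE, adjusted p = 0.97) and -0.30 ± 0.39 (SE, adjusted p = 0.855). Without GFP+ untreated array 2, the array with high neutrophil and low osteoblast markers, Adamts9 was called at -1.48 (adjusted p = 0.000452) and Adamts18 at -2.49 (adjusted p = 0.00359). Timp3 at 0.70 (adjusted p = 0.0335) and Mmp9 at 1.94 (adjusted p = 0.0493) were called without it as well. Other probe sets of Adamts9 changed by -0.48 and -0.70 and were not called. Reticular stroma and adipocyte genes had a median change of -0.74 in GFP+ cells, with 1 of 4 called lower (Adipoq, -2.31 ± 0.28 SE, adjusted p = 0.00409) and 3 at an unadjusted p under 0.05. Their mean level was 11.92 to 12.24 on GFP+ G-CSF arrays and 12.68 to 13.55 on GFP+ untreated arrays. Erythroid genes had a median change of -2.36, with limma calling 0 of 4 and all 4 at an unadjusted p under 0.05, and mean levels of 5.92 to 7.87 on GFP+ G-CSF arrays and 8.28 to 11.05 on GFP+ untreated arrays. The part of these cell types in the Adamts9 and Adamts18 values was not tested. Adamts10 was lower on every G-CSF array of both sorts, with changes of -0.81 ± 0.23 (SE, adjusted p = 0.227) in GFP+ and -0.73 ± 0.20 (SE, adjusted p = 0.0798) in CD31+ cells, and its second probe set changed by 0.49 and 0.15. The proteoglycanase Adamts15 changed by -1.29 ± 0.43 (SE, adjusted p = 0.33) in GFP+ cells, and Mmp17, a membrane-type member, by -0.55 ± 0.20 (SE, adjusted p = 0.23) in CD31+ cells, with no overlap between the groups for either gene. Mmp17 was also lower without overlap in GFP+ cells, at 7.04 to 7.69 on G-CSF arrays and 7.74 to 7.85 on untreated arrays. Without GFP+ G-CSF array 2 the change of Adamts15 was -0.70. Mmp3 was higher on every GFP+ G-CSF array than on any GFP+ untreated array, with a change of 1.57 (adjusted p = 0.198). The change of Mmp3 ran from 1.07 to 2.13 over the fits that left out 1 array. In CD31+ cells the mean of Mmp3 was 6.00 after G-CSF and 5.71 untreated, with overlap.

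Mmp8 and Mmp9, the granule proteases of neutrophils, had changes above 0 in both sorts that did not pass the test. Mmp9, a gelatinase that osteoclasts also make, was 13.28, 12.17 and 12.14 on GFP+ G-CSF arrays, against 10.15, 11.43 and 11.04 on GFP+ untreated arrays. It was 12.86, 11.88, 13.21 and 13.02 on CD31+ G-CSF arrays, against 11.45, 11.94, 11.52 and 10.17 on CD31+ untreated arrays. The change was 1.66 ± 0.47 (SE, adjusted p = 0.239) in GFP+ cells, where the groups did not overlap, and 1.47 ± 0.41 (SE, adjusted p = 0.0864) in CD31+ cells, where they did. Mmp8 was 12.82, 11.44 and 9.69 on GFP+ G-CSF arrays, against 9.10, 10.61 and 8.15 on GFP+ untreated arrays. Its CD31+ levels were 11.93, 10.47, 12.28 and 12.17 on CD31+ G-CSF arrays, against 10.65, 10.39, 10.52 and 8.93 on CD31+ untreated arrays. Its change was 2.03 ± 0.75 (SE, adjusted p = 0.396) in GFP+ and 1.59 ± 0.65 (SE, adjusted p = 0.284) in CD31+ cells, and without GFP+ G-CSF array 1 the GFP+ value was 1.28. Of the neutrophil list, 11 of 13 genes were measured and limma called 0 in either sort, with 7 and 1 at an unadjusted p under 0.05 in GFP+ and CD31+ cells. Its median change was 1.20 in GFP+ and 0.55 in CD31+ cells. Its summed intensity was 197791 to 269809 on GFP+ G-CSF and 45259 to 289414 on GFP+ untreated arrays, and 166111 to 237468 on CD31+ G-CSF and 124515 to 187659 on CD31+ untreated arrays. No marker has a true zero on this scale. GFP+ untreated array 2, which had the highest neutrophil mean of all arrays, had 10.61 for Mmp8 and 11.43 for Mmp9. The part of these cells in the Mmp8 and Mmp9 values was not tested. Of 4 osteoclast markers measured, limma called 0 for G-CSF in either sort, with 0 and 1 at an unadjusted p under 0.05 in GFP+ and CD31+ cells and median changes of 0.84 and -0.56.

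In CD31+ cells Mmp16, Mmp2 and Mmp23 had changes below 0 that did not pass the test. They were -2.57 ± 0.82 (SE, adjusted p = 0.134) for Mmp16, -2.25 ± 0.66 (SE, adjusted p = 0.106) for Mmp2 and -1.68 ± 0.57 (SE, adjusted p = 0.167) for Mmp23, and in GFP+ cells the changes of these genes were -0.54, -0.05 and -0.19. Since 2 of the 4 G-CSF values of Mmp16 lay under the filter limit, its size rests on the pseudocount: it was -3.43 with a pseudocount of 1 and -1.81 with 64. Without CD31+ G-CSF array 2 the changes of Mmp2 and Mmp23 were -1.47 and -1.12. With the replicate block they were called in CD31+ cells, with adjusted p = 0.0202, 0.00242 and 0.0105 in that order. Adamts3 changed by -0.94 ± 0.32 (SE, adjusted p = 0.164) in CD31+ cells. Several marker lists had changes below 0 in the same arrays. Of 6 osteoblast markers measured, 1 was lower after G-CSF in CD31+ cells (Alpl, the alkaline phosphatase of mineralisation, -1.59 ± 0.33 SE, adjusted p = 0.0321), 5 had an unadjusted p under 0.05, and the median change of the list was -1.92. Its mean level was 11.78, 8.48, 9.96 and 11.70 on the CD31+ G-CSF arrays and 12.84, 10.96, 12.53 and 12.52 on the CD31+ untreated arrays. Summed, the list had 5209 to 51549 intensity units on CD31+ G-CSF and 39748 to 89237 on CD31+ untreated arrays. CD31+ array 2 was lowest within each state for Mmp2, Mmp16, Mmp23 and the osteoblast list. It was also lowest in each state for the chondrocyte list, at 7.30 after G-CSF and 7.59 untreated. The same held for the lists of Mmp regulators, procollagen processing genes and substrates described below. Reticular stroma and adipocyte genes had a median change of -0.72, with 1 of 4 called lower (Adipoq, the adiponectin of fat and marrow reticular cells, -3.43 ± 0.24 SE, adjusted p = 3.34e-06) and 4 at an unadjusted p under 0.05. Erythroid genes had a median change of -2.69, with 1 of 4 called lower (Klf1, an erythroid transcription factor, -2.95 ± 0.67 SE, adjusted p = 0.0411) and 4 at an unadjusted p under 0.05. For B lineage genes the median was -1.95, with limma calling 0 of 6 and 4 at an unadjusted p under 0.05. For skeletal muscle genes it was -1.62, with limma calling 0 of 7 and 1 at an unadjusted p under 0.05. Mean levels on CD31+ G-CSF and CD31+ untreated arrays were 10.71 to 11.18 and 11.47 to 12.17 for the reticular list, 6.17 to 8.95 and 8.50 to 9.997 for the erythroid list, and 5.92 to 7.80 and 7.61 to 9.55 for the B lineage list. What part RNA of these cell types has in the CD31+ values of Mmp2, Mmp16 and Mmp23 was not tested. Endothelial markers had a median change of 0.03 in CD31+ cells, with 0 of 8 called by limma and 0 at an unadjusted p under 0.05.

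**Figure D4:**
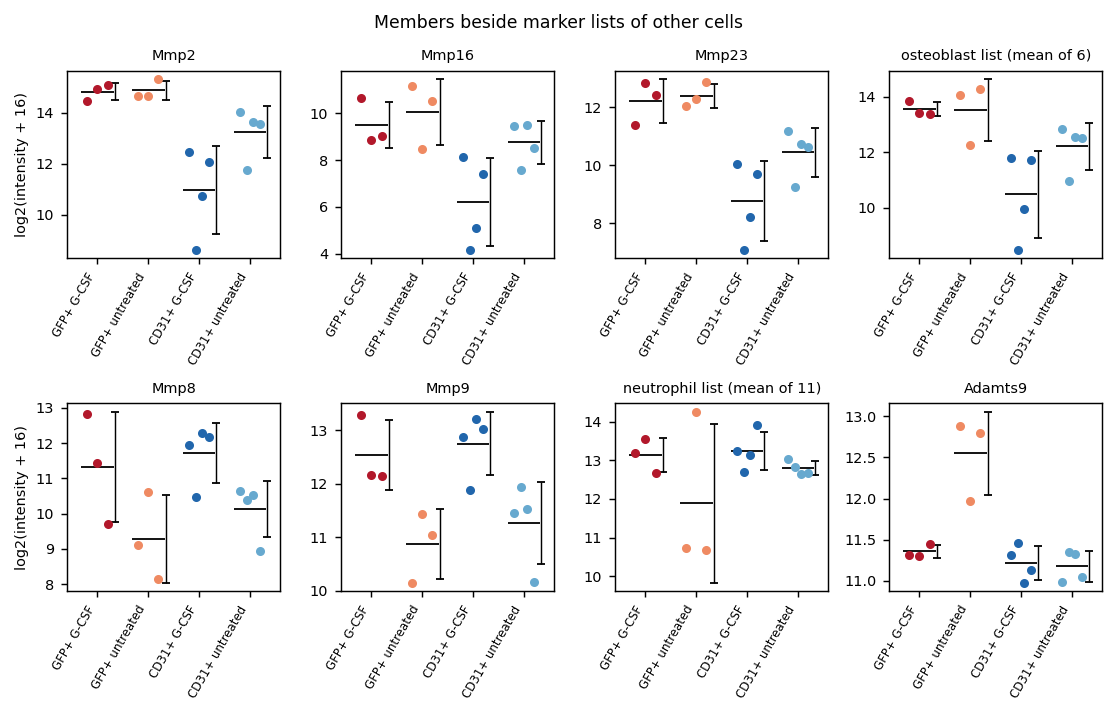
Levels of Mmp2, Mmp16 and Mmp23 beside the mean of the 6 measured osteoblast markers, and of Mmp8 and Mmp9 beside the mean of the 11 measured neutrophil markers, with Adamts9, all as log2(intensity + 16), 1 point per array. Lines and bars are group means and SD of 3 GFP+ or 4 CD31+ arrays, and each panel has its own scale. CD31+ G-CSF array 2 has the lowest value for Mmp2 (8.64), Mmp16 (4.16), Mmp23 (7.08) and the osteoblast list (8.48).

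**Figure D5:**
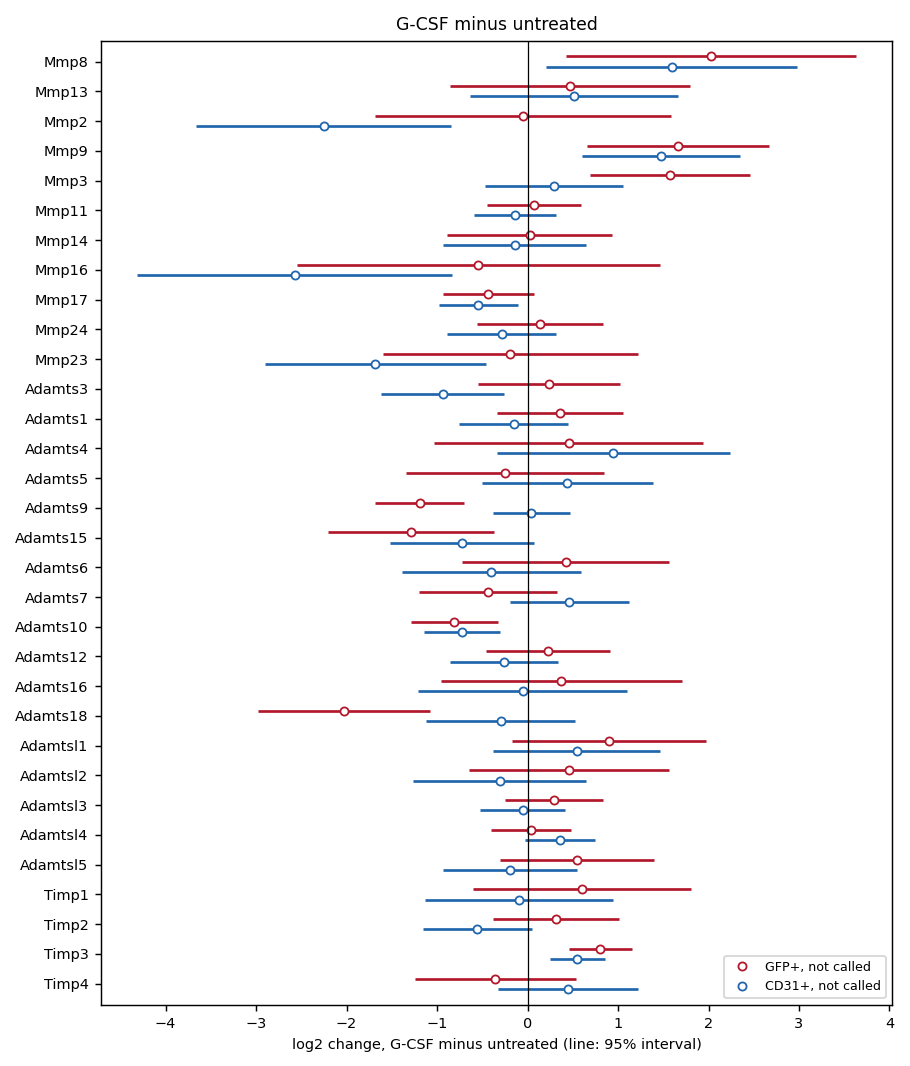
Change with G-CSF against untreated on the log2 scale for the 32 members that passed the filter, in GFP+ cells (red) and CD31+ cells (blue), with 95% intervals from limma; no point has an adjusted p under 0.05. Timp3 lies at 0.80 and 0.55, Adamts18 at -2.03 and -0.30, and Mmp16 at -0.54 and -2.57.

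Genes that act with the members were also counted. Beside the counts here and in the paragraph that follows, 13.6% of all genes were called higher and 12.8% lower in untreated GFP+ cells. After G-CSF these shares were 17.5% and 14.4%. For G-CSF against untreated, 0.23% of all genes were called in GFP+ and 1.6% in CD31+ cells, and 8.85% and 13.1% had an unadjusted p under 0.05. Whether the shares of these small lists differ from those of all genes was not tested. Of 14 measured regulators of Mmp activity, 4 were higher and 2 lower in untreated GFP+ cells, and 6 were higher and 3 lower after G-CSF. Reck, a membrane-anchored Mmp inhibitor, differed by 1.86 untreated and 1.82 after G-CSF, and Lrp1, the receptor that clears Mmp proteins from outside the cell, by 1.87 and 2.65. Thbs2, a thrombospondin that binds Mmp2, differed by 2.97 and 4.67. Cav1, the caveolin that is abundant in endothelium, differed by -4.25 and -3.33. With G-CSF, limma called 0 regulators in GFP+ cells, 3 having an unadjusted p under 0.05, and 1 in CD31+ cells, where 7 of 14 had one. The called gene was Thbs1, a thrombospondin, at -1.90 ± 0.42 (SE, adjusted p = 0.0399).

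Of 5 measured procollagen processing genes, Bmp1, the C-proteinase, was higher in GFP+ cells by 1.87 (adjusted p = 0.000446) untreated and 2.31 (adjusted p = 5.15e-05) after G-CSF. Pcolce, its enhancer, was higher by 2.26 after G-CSF (adjusted p = 0.0026), and limma called 0 of the 5 for G-CSF in either sort, with 1 and 2 at an unadjusted p under 0.05 in GFP+ and CD31+ cells. Of 16 measured substrates, 4 were higher and 2 lower in untreated GFP+ cells, and 8 higher and 2 lower after G-CSF. Vcan, the versican cut by Adamts1, Adamts5 and Adamts9, differed by 4.69 untreated and 3.85 after G-CSF, and Vwf, the substrate of Adamts13, by -5.05 and -4.28. Col3a1, a fibrillar collagen, was higher by 1.85 and 3.55, and it was the substrate called with G-CSF in CD31+ cells (-1.67 ± 0.34 SE, adjusted p = 0.0296). Of 5 measured plasminogen system genes, which activate several Mmp proenzymes, 1 was lower in each state, S100a10 with a difference of -0.95 untreated and Plaur, the urokinase receptor, with -0.86 after G-CSF. With G-CSF limma called 0 substrates in GFP+ cells, where 4 had an unadjusted p under 0.05 and the median change was 0.05. In CD31+ cells 7 of 16 substrates had one, with a median change of -0.90. Limma called 0 plasminogen system genes in either sort, where 2 had an unadjusted p under 0.05 in each.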

How the data were processed

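Total RNA of 14 sorted samples was hybridised to Affymetrix mouse arrays. The deposited values are linear intensity units, made by the authors with Affymetrix Expression Console 1.1 per the submitters' processing notes. How probes were summarised is not given in the sources used here. Each array's mean without extreme values lay between 500.003 and 500.004, so no further scaling was done.

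Of 45101 probe sets, 64 controls, 932 with several symbols and 9160 with none were left out, by the symbols of the platform annotation, which can be old. Values were turned into log2(intensity + 16). Probe sets whose mean lay in the dimmest fraction of 0.333 (under 5.78) were dropped, and 13453 genes were fitted in limma 3.58.1 under R 4.3.3, with 4 group means, a trended prior, 2-sided tests and Benjamini-Hochberg adjustment. Arrays were grouped by title. The median of an array ran from 6.57 to 7.13 and its actin 3' to 5' ratio from 2.62 to 11.03.

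Same-numbered arrays of the 2 states deviated together, with correlations of 0.22 to 0.31 in GFP+ and 0.10 to 0.38 in CD31+ cells. So the replicate number, which comes from the titles and whose meaning the labels do not give, was used as a block in an alternative fit. For the G-CSF tests the block was the number within a sort. For the comparisons of the sorts it joined same-numbered GFP+ and CD31+ arrays. Whether those deviated together was not tested, and CD31+ number 4 has no GFP+ array to match. CD31+ number 4 correlated better with another number (0.18). Other alternatives changed the pseudocount, scaling, filter, probe set choice, prior and arrays, and a batch term for the number of decimals was added after seeing the data. The fit was also run on simulated data with independent noise on each array. Those data lack the shared deviations of same-numbered arrays, so they do not show how the fit behaves with them. Every member could be named, called members with all values, and of the other lists up to 4 called genes, or the 2 largest changes where none was called. The members and lists were chosen with earlier results of these data known.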

Additional observations from a re-analysis of the deposited data

Results flagged for a closer look

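In groups of 4 arrays, 4 members had 1 array far from the other 3, among 64 such groups tested, where chance flags about 1 in 20. Adamts5 was 13.67 on CD31+ G-CSF array 3 and 11.48 to 11.60 on the other 3 arrays. Adamts7 was 9.96 on the same array and 8.65 to 8.85 on the others. Mmp8 was 8.93 on CD31+ untreated array 4 and 10.39 to 10.65 on the others. Timp4 was 13.68 on CD31+ untreated array 3 and 14.30 to 14.36 on the others. Groups of 3 arrays were not tested in this way.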

How the results depend on the processing

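For G-CSF in GFP+ cells, where 0 members were called, a pseudocount of 64 gave 2 (Adamts9 and Adamts18), the replicate block 2 (Timp3 and Adamts9), the batch term for decimals 2 (Timp3 and Adamts9), and leaving out both GFP+ untreated array 2 and CD31+ untreated array 1 gave 3 (Timp3, Adamts9 and Adamts18). Quantile normalization, a stricter filter on dim probe sets and leaving out probe sets with suffixes for shared sequence gave 1 each (Adamts9), and leaving out 1 array gave 0 to 4, the 4 being without GFP+ untreated array 2. In CD31+ cells, whose array medians differed by -0.18 between G-CSF and untreated, quantile normalization, median centring and a fit of only the arrays compared gave 1 each (Timp3), the replicate block 4, and leaving out 1 array 0 to 1 (Mmp2, without CD31+ untreated array 2). The test of the difference between these changes gave 0 to 1 (Adamts9, without GFP+ untreated array 2). Between the sorts, leaving out 1 array gave 13 to 16 calls untreated and 16 to 19 after G-CSF, and the other alternatives 13 to 17 and 16 to 20. Over all genes, the calls for G-CSF ran from 2 to 475 in GFP+ and from 28 to 660 in CD31+ cells, against 31 and 215 as reported. No called value changed sign under any alternative run. Values over the alternatives were counted only for members with an unadjusted p under 0.05 as reported, or where an alternative called the member. Of these, 1142 kept their side of the threshold, 38 passed it and 29 lost it, so the counts do not cover all members. The replicate block changed no other member's call than those given beside the results. The cause of these changes was not tested, and 3 or 4 arrays a group limit what can be called.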

Other observations

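Of 8 measured ADAM sheddases, membrane-bound relatives of the ADAMTS proteases, 1 was higher and 1 lower in GFP+ than in CD31+ cells in each state. Of all genes, 26.4% were called between the sorts untreated and 31.9% after G-CSF. Adam12, an active metalloprotease of mesenchymal cells, differed by 1.79 untreated and 2.57 after G-CSF (adjusted p = 0.00489 and 0.00023). Adam15, an integrin-binding sheddase, differed by -1.89 and -2.24 (adjusted p = 9.33e-05 and 1.42e-05). For G-CSF against untreated limma called 0 of the 8 in either sort, with 0 and 2 at an unadjusted p under 0.05 in GFP+ and CD31+ cells.

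Among 7 AP-1 subunits, whose motif stands in the promoters of Mmp13 and Mmp3, Fosl2 differed by -0.81 (adjusted p = 0.0362) in untreated cells. After G-CSF Fosb differed by 1.44, Fos by 0.72 and Fosl1 by -1.20 between GFP+ and CD31+ cells (adjusted p = 0.00302, 0.00533 and 0.0343). With G-CSF limma called 0 of the 7 in either sort, with 1 at an unadjusted p under 0.05 in each. What these levels have to do with Mmp levels was not tested.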
